A study of Homo sapiens with 8 samples.

Results

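The 252 genes described here were chosen by name and level: each carries a symbol made of ZNF and digits, and each was selected on its mean over 8 libraries of Rh41, which had to reach 5 CPM (counts scaled to the same total of reads assigned to genes in every library). They were drawn from 482 such symbols in a table of 60234 genes. Rh41 is an established human line derived from an alveolar rhabdomyosarcoma, a tumour whose cells express part of the skeletal muscle programme, and it carries the PAX3-FOXO1 fusion. Of the 8 libraries, 4 came from control cells (CTR) and 4 from cells labelled siG9a, in which G9a, the histone methyltransferase encoded by EHMT2, was knocked down. All 8 share the cell line and the fusion, and neither the control reagent nor the time after knockdown is given in the labels. The series title names a short hairpin against G9a where the sample labels name siG9a, and the labels are followed here. The design text calls the replicates biological.

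Most ZNF genes encode proteins with an array of C2H2 zinc fingers, in which a pair of cysteines and a pair of histidines hold a zinc ion and each finger can read a few bases of DNA. The largest subfamily also carries a KRAB domain. KRAB recruits the corepressor TRIM28, which brings SETDB1, a methyltransferase that writes H3K9 trimethylation, and HP1 proteins that bind the mark. Many KRAB genes lie in tandem clusters, above all on chromosome 19, and the 3′ ends of many of these genes are themselves known to carry H3K9 trimethylation. G9a acts mainly on H3K9 mono- and dimethylation. The comparison therefore bears on whether expression of these genes differed when G9a was lowered.

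Promoter sequences were available for 223 of the 252 genes, as RefSeq entries of GRCh38.p14 that reach from 250 bases before the start to 50 bases after it. The ETS-type motif CCGGAAG, searched on both strands, was found in 41.7% of these promoters and in 10.7% of all 27305 promoters of the table. Among 7492 other genes at or above the same level it was found in 20.3%. Promoters whose proteins have a KRAB A box pattern held it in 48.4% (124 promoters), and those without the pattern in 33.7% (98 promoters). Median GC content of the promoters was 62.7% in the ZNF genes, 58.3% in the whole table and 66.0% in the other expressed genes. Of the other motifs searched on both strands, CCAAT was found in 43.9% of ZNF promoters against 37.3% of the other expressed genes, TGACGTCA (the cyclic AMP element) in 4.93% against 3.68%, CACGTG in 6.73% against 10.9%, and CAGCTG, the E-box form bound by MYOD1, in 10.8% against 16.5%. GGGCGG, the GC box, was found in 64.6% against 72.4%, and TATAAA in 4.04% against 5.06%. A match is a run of letters and not a measured binding site, and no 2 of the motifs searched contain each other.

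The stretches below are the 120 bases before the start of 6 genes that changed in siG9a by the test given further on, read 5′ to 3′ along the gene's strand. They are shown because they place genes that moved in opposite directions beside each other, with and without the motif. They were picked to hold every called gene with a match in its 120 bases, so they overstate how common it was there. Capitals mark CCGGAAG or its reverse complement. The stretches lie at chr1:247172021-247172140 on the minus strand for ZNF124, chr19:55640882-55641001 on the plus strand for ZNF580, chr12:53180602-53180721 on the plus strand for ZNF740, chr19:36666814-36666933 on the plus strand for ZNF567, chr15:42491142-42491261 on the minus strand for ZNF106 and chr1:151281402-151281521 on the plus strand for ZNF687.
ZNF124: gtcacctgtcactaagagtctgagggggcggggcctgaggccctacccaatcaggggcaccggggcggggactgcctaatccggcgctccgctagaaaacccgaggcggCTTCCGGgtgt
ZNF580: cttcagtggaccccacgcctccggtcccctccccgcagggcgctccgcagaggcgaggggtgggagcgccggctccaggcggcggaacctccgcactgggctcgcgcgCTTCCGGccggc
ZNF740: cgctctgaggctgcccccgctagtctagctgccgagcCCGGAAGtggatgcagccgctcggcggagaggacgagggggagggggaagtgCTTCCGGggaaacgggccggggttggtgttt
ZNF567: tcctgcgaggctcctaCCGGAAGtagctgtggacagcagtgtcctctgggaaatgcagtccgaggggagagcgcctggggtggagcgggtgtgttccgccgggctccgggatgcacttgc
ZNF106: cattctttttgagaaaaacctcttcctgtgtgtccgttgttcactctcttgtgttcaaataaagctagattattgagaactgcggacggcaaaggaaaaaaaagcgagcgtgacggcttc
ZNF687: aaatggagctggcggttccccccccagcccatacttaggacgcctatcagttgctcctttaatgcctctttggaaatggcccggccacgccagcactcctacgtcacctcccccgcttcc
The motif stood in the stretch of ZNF124, which was lower in siG9a, and in those of ZNF580, ZNF740 and ZNF567, which were higher. No match lay in the 120 bases of ZNF106, which was lower, or of ZNF687, which was higher. The 300-base entry of ZNF687 did hold a match, outside the printed stretch. No other called gene with an entry had a match in its 120 bases. Over all 19 called genes with an entry, 10 held the motif somewhere in the 300 bases (52.6%, against 41.7% of all ZNF promoters).

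Library sizes ran from 1458825 to 1938665 reads assigned to genes, so that 1 read was worth 0.516 to 0.685 CPM and 3 reads, taken as the floor, 1.55 to 2.06 CPM. Intervals and floors of this kind cover counting error only. EHMT2 measured 57.6, 68.1, 87.3 and 88.3 CPM in CTR replicates 1 to 4 and 19.6, 35.1, 33.1 and 58.5 CPM in siG9a, which is 34%, 51.6%, 37.9% and 66.3% of the CTR library of the same number. The siG9a replicate 4 value lay above the lowest CTR value. Replicate 3 stood apart from the others in both groups: 10 skeletal muscle and rhabdomyosarcoma markers, MYOD1 and DES among them, summed to 354 CPM in CTR and 292 CPM in siG9a there, against 2326 to 2759 CPM and 1151 to 1821 CPM elsewhere. The 5 neural markers, mostly NEFL and NEFM, summed to 9663 CPM in CTR and 8968 CPM in siG9a in the replicate 3 libraries. In replicates 2 and 4 they summed to 1831 to 2958 CPM. Replicate 1 also stood apart in both groups by these markers, with only 189 CPM in CTR and 222 CPM in siG9a. NEFH was at most 0.52 CPM and INA at most 5.71 CPM, with INA at 0.61 CPM in CTR replicate 3. Of the markers of other cell types, the 8 of fibroblasts and stroma summed to 118 to 409 CPM in CTR and 52.0 to 323 CPM in siG9a, mostly from COL3A1 (38.8 to 341 CPM) and COL1A1 (12 to 55.3 CPM), with LUM at most 0.61 CPM and THY1 at most 0.69 CPM. The 5 epithelial markers summed to 10.3 to 75.6 CPM in CTR and 23.5 to 44.0 CPM in siG9a, with EPCAM at most 0.69 CPM and KRT18 up to 46.1 CPM. The 3 immune markers summed to 11.7 to 51.4 CPM and 13.9 to 28.7 CPM, with PTPRC at most 1.37 CPM and LAPTM5 up to 45.9 CPM. In bulk RNA, fewer cells of a type and less RNA per cell cannot be told apart. The part of these differences in the results below was not tested. For each ZNF gene called below, the adjusted p without replicate 3 of both groups is also given.

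As a group the ZNF genes were expressed at low to moderate levels. Reads came from the 3′ ends of transcripts, so a level in CPM does not scale with gene length. The 252 genes together took 9250, 10186, 8426 and 11234 CPM in CTR and 7852, 8575, 8045 and 9522 CPM in siG9a, or 0.785% to 1.12% of a library. The siG9a sum was below the CTR sum in 4 of 4 pairs, but the groups overlapped, and abundant genes weigh most in such a sum. The library medians over the ZNF genes averaged 16.6 ± 1.63 CPM in CTR and 16.4 ± 2.18 CPM in siG9a (SD, n = 4 each). That median was higher in siG9a in pair 1 (17.1 CPM in CTR, 18.8 CPM in siG9a) and lower in pairs 2, 3 and 4. Of the 252, 78 had a mean under 10 CPM, 125 a mean of 10 to 50 CPM and 49 a mean of 50 CPM or more, with 17 at 100 CPM or more. All but 1 gene, ZNF532 (0 reads in CTR replicate 1), had a read in every library. Just inside the threshold stood ZNF844 (mean 5.00 CPM), ZNF181 (5.16 CPM) and ZNF532 (5.16 CPM), and just outside it ZNF329 (4.78 CPM), ZNF821 (4.76 CPM) and ZNF250 (4.73 CPM). Because the mean over both groups chose the genes, 8 of them had a CTR mean and 9 a siG9a mean under 5 CPM.

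No ZNF gene passed the test that takes the 8 libraries as unpaired. That test was limma on log2(CPM + 1) over 15092 genes, with a threshold of 0.05 on the Benjamini-Hochberg adjusted p. It called 0 of the 252, as it called 0% of the 10862 genes that also reached 5 CPM, and the smallest adjusted p among the ZNF genes was 0.0916, for ZNF687. At an unadjusted p under 0.05 it gave 28 ZNF genes (11.1%), against 14% of genes at that level. edgeR without the block also called 0 of the 252, and DESeq2 without it called 1 higher and 1 lower. The labels do not say what libraries of the same number share, and the check described under the processing linked them unevenly. Deviations of same-numbered libraries correlated at 0.500 and 0.673 for numbers 1 and 3, but only at 0.104 and 0.130 for numbers 2 and 4. With the replicate number taken as a block, 24 ZNF genes were called (9.52%, against 14.6% of genes that reached 5 CPM and 11.4% of all genes tested). Of these, 17 fell (6.75%, against 8.44%) and 7 rose (2.78%, against 6.2%) in siG9a. One of the 7, ZNF273, reached the level threshold only through its siG9a values, so its change is given as a description and supports nothing. These shares lie under those of all genes that reached 5 CPM, which are not matched in level. Their median CTR level was 28.2 CPM against 16.4 CPM for the ZNF genes, and the share called was larger at higher levels. Within each band of level given further on, the share of ZNF genes called was also the smaller. Every call named below as a rise or a fall is from the blocked fit, and every one is lost in the fit without the block.

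All 24 called genes moved in the same direction in 4 of 4 pairs, and in 13 of them the siG9a values did not overlap the CTR values (6 lower, 7 higher). The blocked fit chose these genes by the differences within the same pairs, so neither count is further support for the calls. The matching shares among all called genes were not counted. Over all 252 ZNF genes the groups did not overlap in 20 (7.94%, against 8.43% of genes that reached 5 CPM), 12 of them higher in siG9a (4.76%, against 4.5%) and 8 lower (3.17%, against 3.93%). The calls depended on which libraries were used. Without replicate 3 of both groups the blocked fit called 11 ZNF genes (4.37%, against 9.2%), 9 lower and 2 higher, and 9 of the 24 were still called. Without replicate 1, 2 or 4 the numbers still called were 12, 7 and 15. The 6 called in every one of these 4 fits were ZNF521, ZNF462, ZNF106, ZNF827 and ZNF714, which fell, and ZNF687, which rose. The 4 called in none of them were ZNF611, ZNF770, ZNF512 and ZNF567. On the reads recovered from CPM, edgeR's quasi-likelihood test with the block called 22 of the 252 (8.73%, against 14.9%) and DESeq2 with the block 9 (3.57%, against 8.56%), and all of these were among the 24.

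**Figure D1:**
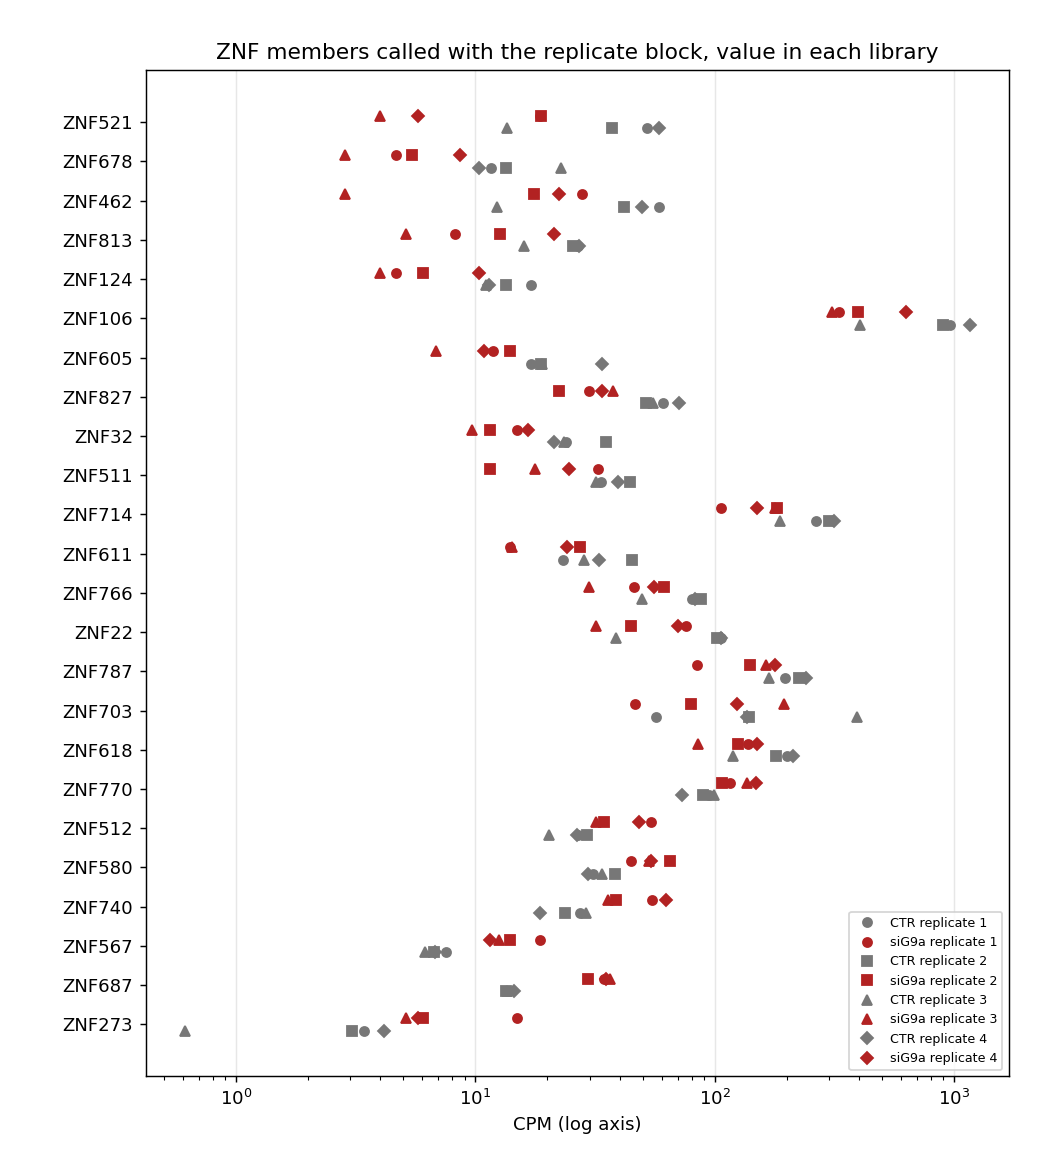
CPM of the 24 called ZNF genes (vertical axis) in each library, on a log axis, with grey symbols for CTR, red symbols for siG9a and 1 marker shape per replicate number. ZNF521 (top) has the largest fall of the 24, ZNF687 has all 4 red symbols to the right of all 4 grey ones, and in ZNF462 both replicate 3 libraries (triangles) lie far to the left of the rest of their group.

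ZNF521, a large zinc finger cofactor known from blood and neural progenitors that recruits the NuRD repressor complex, had the largest fall. It measured 52.1, 37.1, 13.5 and 58.7 CPM in CTR and 18.6, 18.8, 4.00 and 5.74 CPM in siG9a. The mean fell from 40.3 ± 20 to 11.8 ± 8.0 CPM (SD, n = 4 each), to 29.2% of CTR, and the log2 change was -1.77 (SE 0.29; limma with the replicate block, adjusted p = 0.000296; 0.00223 without replicate 3; without the block 0.221). Each siG9a library was below the CTR library of its number, but CTR replicate 3 lay below siG9a replicates 1 and 2, so the groups overlapped. The level in replicate 3 was the lowest of its group in both.

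ZNF462 is a protein with many fingers whose loss of 1 copy causes a developmental syndrome. It had the most C2H2 patterns of all the genes here, 33. Its values were 58.3, 41.9, 12.3 and 49.8 CPM in CTR and 27.9, 17.6, 2.85 and 22.4 CPM in siG9a, a log2 change of -1.29 (SE 0.24; limma with the block, adjusted p = 0.000731; 0.00688 without replicate 3). Replicate 3 was again the lowest in both groups, and the fall was seen within each pair, from -1.04 to -1.79 on the log2 scale. The 5 reads behind the siG9a replicate 3 value limit its precision.

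ZNF106 was the most abundant of the ZNF genes. It encodes an RNA-binding protein whose loss in mice leads to degeneration of motor nerves and muscle. It measured 958, 902, 403 and 1162 CPM in CTR and 329.6, 397, 309 and 629.7 CPM in siG9a, so that its mean fell to 48.6% of CTR (log2 change -0.996, SE 0.16; limma with the block, adjusted p = 0.000155). In pairs 1, 2 and 4 the log2 differences were -1.54, -1.18 and -0.88, and in pair 3 the difference was -0.38. CTR replicate 3 lay below siG9a replicate 4, and without replicate 3 the adjusted p was 0.000382.

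ZNF827, known for bringing NuRD to telomeres, and ZNF714, on chromosome 19, fell with no overlap between the groups. ZNF827 measured 61.0, 51.6, 55.3 and 70.6 CPM in CTR and 29.9, 22.4, 37.7 and 33.8 CPM in siG9a (log2 change -0.94, SE 0.19; limma with the block, adjusted p = 0.00202; 0.0064 without replicate 3). ZNF714 measured 266, 301, 188 and 314 CPM in CTR and 106, 183, 179 and 151 CPM in siG9a (log2 change -0.79, SE 0.17; limma with the block, adjusted p = 0.00269; 0.00169 without replicate 3). The ZNF827 libraries of replicate 3 sat within their groups, whereas in pair 3 ZNF714 differed by only -0.07 on the log2 scale.

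ZNF687 had the steadiest rise. It encodes a zinc finger protein mutated in a severe form of Paget disease of bone. Its values were 13.7, 13.4, 13.5 and 14.5 CPM in CTR, from 20 to 28 reads, and 34.6, 29.7, 36.5 and 35.0 CPM in siG9a, from 49 to 67 reads. Its mean rose from 13.8 ± 0.52 to 33.9 ± 2.97 CPM (SD, n = 4 each), or to 246% of CTR, with log2 differences of 1.27, 1.09, 1.37 and 1.21 in the 4 pairs. The log2 change was 1.24 (SE 0.23; limma with the block, adjusted p = 0.00092; 0.0119 without replicate 3; without the block 0.0916). The lowest siG9a value was above the highest CTR value, and replicate 3 did not stand apart. Its locus overlaps PI4KB on the opposite strand in GENCODE 29, and since the strand setting of the counting is not given, reads of the 2 genes cannot be told apart.

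Another 6 genes were called higher, each with no overlap between the groups. ZNF740 lost its call in 1 of the 4 fits that leave out a pair, ZNF580 and ZNF273 in 3, and ZNF567, ZNF512 and ZNF770 in all 4. ZNF740 measured 27.4, 23.7, 28.9 and 18.7 CPM in CTR and 54.7, 38.7, 36.0 and 62.5 CPM in siG9a (log2 change 0.91, SE 0.22; limma with the block, adjusted p = 0.00872; 0.0112 without replicate 3). ZNF567, a KRAB gene in the ZNF146 to ZNF573 stretch of chromosome 19, measured 7.54, 6.68, 6.15 and 6.75 CPM in CTR and 18.6, 13.9, 12.6 and 11.5 CPM in siG9a, from 10 to 13 and from 20 to 36 reads. Its log2 change was 0.94 (SE 0.31; limma with the block, adjusted p = 0.0475; 0.118 without replicate 3). In both genes every siG9a library exceeded every CTR library, and ZNF567 overlaps ZNF850 on the opposite strand.

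ZNF273, a KRAB gene on chromosome 7, is described without support from its test, since the siG9a values alone carried it past the level threshold. It measured 3.43, 3.04, 0.61 and 4.15 CPM in CTR, from 1 to 8 reads, and 15, 6.05, 5.14 and 5.74 CPM in siG9a, and without replicate 3 its adjusted p in limma with the block was 0.181. The siG9a replicate 1 value was far above the other 3. ZNF580 rose from 33.1 ± 3.86 to 54.2 ± 8.16 CPM (log2 change 0.69), ZNF512 from 25.7 ± 3.78 to 42.2 ± 10.7 CPM (0.67) and ZNF770 from 89.2 ± 11.5 to 127 ± 19 CPM (0.50; SD, n = 4 each), with adjusted p of 0.0181, 0.0372 and 0.0459 in limma with the block. Without replicate 3 these were 0.066, 0.0983 and 0.129, so the calls were lost. ZNF580 overlaps ZNF581 on the same strand.

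The genes that fell are split here by the KRAB A box pattern described below. ZNF714 did not match it, although genes without a match may still carry KRAB. Of the genes with the pattern that fell, ZNF678 had the largest change. It measured 11.7, 13.4, 22.8 and 10.4 CPM in CTR and 4.64, 5.45, 2.85 and 8.60 CPM in siG9a (log2 change -1.30, SE 0.36; limma with the block, adjusted p = 0.0198). The groups did not overlap, but the difference was -2.62 in pair 3 and -0.25 in pair 4, and without replicate 3 the adjusted p was 0.199. ZNF813 measured 26.7, 25.5, 16 and 27 CPM in CTR and 8.25, 12.7, 5.14 and 21.2 CPM in siG9a (log2 change -1.08, SE 0.28; limma with the block, adjusted p = 0.0118; 0.0677 without replicate 3). Its siG9a replicate 4 value lay above CTR replicate 3. The remaining genes with the pattern that fell were ZNF124 (log2 change -1.03), ZNF605 (-0.95), ZNF611 (-0.69) and ZNF766 (-0.65), with adjusted p of 0.0465, 0.0281, 0.0457 and 0.0153 in limma with the block. Without replicate 3 these were 0.150, 0.136, 0.171 and 0.069, so the calls were lost, and that of ZNF611 was lost in all 4 fits that leave out a pair.

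ZNF703, a repressor encoded in a region amplified in breast cancer, fell while its level varied more between replicate numbers than between the groups. It measured 56.9, 139, 392 and 137 CPM in CTR and 46.4, 79.9, 195 and 124 CPM in siG9a (log2 change -0.55, SE 0.17; limma with the block, adjusted p = 0.0292; without the block 0.723). Replicate 3 was the highest library in both groups, and without it the adjusted p was 0.249. The other genes that fell were ZNF32 (log2 change -0.93), ZNF511 (-0.85), ZNF22 (-0.63), ZNF787 (-0.59) and ZNF618 (-0.51), with adjusted p of 0.0206 to 0.0281 in limma with the block. Without replicate 3, ZNF22 (0.0323) and ZNF787 (0.0169) were still called, and ZNF32 (0.104), ZNF511 (0.0919) and ZNF618 (0.0786) were not. ZNF618 differed by nearly the same amount in each pair, from -0.48 to -0.55. ZNF511 and ZNF32 overlap other annotated genes, ZNF32 on the opposite strand and ZNF511 on both.

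In 7 genes the groups did not overlap but the change missed the threshold, and they are named because of those values. ZNF445, which takes part in keeping genomic imprints, measured 28.1, 31.0, 30.1 and 36.9 CPM in CTR and 37.1, 46.6, 46.2 and 61.4 CPM in siG9a (log2 change 0.57, SE 0.19; limma with the block, adjusted p = 0.0559). ZNF708 measured 4.11, 6.08, 3.69 and 5.19 CPM in CTR and 10.3, 9.68, 10.3 and 8.60 CPM in siG9a (log2 change 0.91; limma with the block, adjusted p = 0.0901). Its CTR mean lay under 5 CPM. Like ZNF273, it reached the level threshold only through its siG9a values, so its change is a description and supports nothing. ZNF419 (0.64), ZNF574 (0.44) and ZNF696 (0.86) also had log2 changes above 0, and ZNF609 (-0.48) and ZNF341 (-1.12) had changes below 0. Their adjusted p in limma with the block were 0.0538 to 0.271. Such p-values do not show that these genes were alike in the 2 groups. ZNF341 had 10, 9, 12 and 26 reads in CTR and 3, 9, 9 and 3 in siG9a. Its groups were kept apart only by the scaling of equal counts of 9 reads, and its lowest siG9a values were at the floor of 3 reads. It reached the level threshold only through its CTR values, so its change supports nothing.

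The other most abundant ZNF genes were ZNF428, ZNF207, a spindle and BUB3-binding protein, and ZNF593, a ribosome biogenesis factor. ZNF428 measured 654, 716, 323 and 660.0 CPM in CTR and 339, 465, 357 and 558 CPM in siG9a. Its log2 change of -0.42 (SE 0.16) did not pass limma with the block (adjusted p = 0.0844), and CTR replicate 3 was far below the other 3. Without replicate 3 the log2 change was -0.60 and the adjusted p in that fit 0.0495, past the threshold. ZNF207 had a log2 change of -0.33 (SE 0.14; adjusted p = 0.136) and ZNF593 of -0.30 (SE 0.15; adjusted p = 0.212). ZNF207 was lower in 4 of 4 pairs, by 0.24 to 0.42 on the log2 scale.

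**Figure D2:**
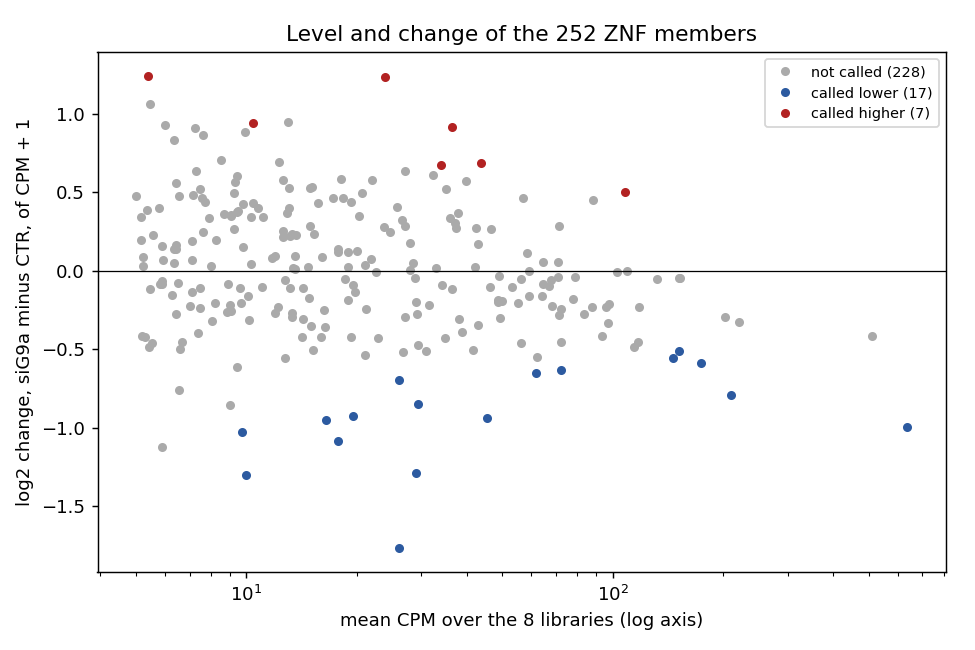
Mean CPM over the 8 libraries (horizontal, log axis) against the log2 change from CTR to siG9a (vertical), 1 point per ZNF gene, with the 17 that fell in blue and the 7 that rose in red in the blocked fit. Above 50 CPM, 42 of the 49 points lie below 0, and below 10 CPM the points spread on both sides.

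Over all 252 genes the median log2 change was -0.03, against 0.01 over all genes tested, and the lower and upper quartiles were -0.27 and 0.34. The medians in pairs 1 to 4 were 0.08, -0.04, 0.08 and -0.11 (SD 0.0934), so the median of the whole group was smaller than its spread between pairs. Changes below 0 were found in 131 of the 252 (52.0%, against 48.9% of all genes tested). A change of at least 2-fold in either direction was found in 9 (3.57%, against 5.9% of genes that reached 5 CPM).

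The direction differed with the level of expression. Among the 49 ZNF genes with a mean of 50 CPM or more, 42 (85.7%) had a log2 change below 0, with a median of -0.21, whereas 52.7% of all 3597 genes at that level were below 0, with a median of -0.03. In these 49 genes 7 fell and 1 rose (16.3% called, against 21.4% of all genes at that level). By pair, 34, 36, 31 and 39 of the 49 were lower in siG9a, and without replicate 3 the number was 40, of which 5 fell and 0 rose. Quantile normalisation gave 39 of 49 and median-ratio scaling 42 of 49. At 10 to 50 CPM the median of 125 genes was 0.02 (5 called higher and 8 lower, or 10.4%, against 12.9% of all genes at that level). At 5 to 10 CPM the median of 78 genes was 0.14 (1 called higher, ZNF273, and 2 lower, or 3.85%, against 6.82%). The medians over all genes of these levels were 0.03 and 0.07. No list test was made, so these counts are descriptions.

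Proteins were translated from GENCODE 29 coding transcripts, which 248 of the 252 genes had, to ask what the genes share beyond their names. ZNF271, ZNF542 and ZNF767 are annotated as transcribed pseudogenes, and the identifier given for ZNF2 was not found. A C2H2 finger was taken as C, 2 residues, C, 12 residues, H, 3 to 5 residues, H. The median protein held 10 such patterns, and 13 genes had none, ZNF703 and ZNF609 among them. Genes with 1 to 5 patterns had 3 rises and 4 falls among 45 (15.6%), those with 6 to 10 had 3 and 5 among 83 (9.64%), and those with 11 or more had 1 and 7 among 107 (7.48%), against 14.6% of genes that reached 5 CPM. The median log2 changes of these 3 classes were -0.05, 0.01 and -0.05. In the annotation 142 of the 252 genes overlap a gene on the opposite strand and 85 a gene on the same strand, among them 15 and 10 of the 24 called genes, and reads of such partners cannot be told apart here.

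A KRAB A box pattern was found in 134 genes, of which 2 were called higher (ZNF567 and ZNF273, the latter by the rule on level described above) and 6 lower (5.97% called, against 14.6% of genes that reached 5 CPM), with a median log2 change of 0.04. Of the 114 genes with no match 5 were called higher and 11 lower (14% called), with a median of -0.07. The pattern misses diverged boxes, such as those of ZNF202 and ZNF224, so genes without a match may still carry KRAB. It matched 0 of the 7 neighbouring genes from ZNF576 to ZNF180 on chromosome 19, ZNF224 among them, and how many boxes it missed is not known. Genes with the pattern were expressed at lower levels, with a median CTR level of 11.8 CPM against 33.0 CPM, and the share called was larger at higher levels. Under 10 CPM, 3 of 58 genes with the pattern (5.17%), ZNF273 among them, and 0 of 18 without it were called, against 6.82% of all genes of 5 to 10 CPM. Within 10 to 50 CPM, 4 of 67 genes with the pattern (5.97%) and 9 of 57 without it (15.8%) were called, against 12.9% of all genes at that level. At 50 CPM or more the numbers were 1 of 9 (11.1%) and 7 of 39 (17.9%), against 21.4%. Without replicate 3, 0 of the 134 genes with the pattern and 11 of the 114 without it were called, against 9.2% of genes that reached 5 CPM. The difference between the classes was not tested.

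**Figure D3:**
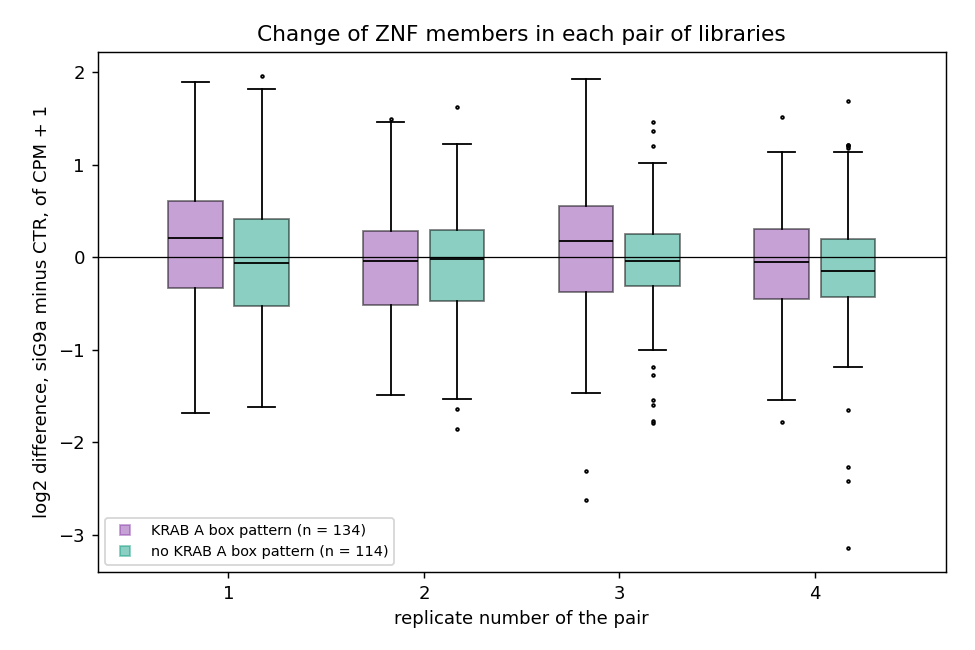
Log2 difference between siG9a and CTR (vertical) within each pair of libraries with the same replicate number (horizontal), for 134 genes with the KRAB A box pattern (purple) and 114 without it (green); boxes span the quartiles, lines mark medians, and points lie beyond the whiskers. All boxes include 0. The medians with the pattern are 0.21, -0.04, 0.18 and -0.05 in pairs 1 to 4, and those without it are all below 0, at -0.06, -0.01, -0.03 and -0.14.

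Chromosome 19 held 107 of the ZNF genes (42.5%), of which 2 rose and 5 fell (6.54% called, against 14.6% of genes that reached 5 CPM), with a median log2 change of -0.06. The 144 mapped to other chromosomes had 5 rises and 12 falls (11.8% called) and a median of 0.02. In the longest run of KRAB genes there, the 23 genes from ZNF577 to ZNF331, all with the KRAB pattern, 0 rose and 3 fell (ZNF766, ZNF611 and ZNF813), and 15 were below 0. In the 31 genes from ZNF628 to ZNF446 ZNF580 rose and ZNF787 fell (6.45% called), and 18 were below 0 (58.1%). The 14 genes from ZNF146 to ZNF573 had 1 rise, ZNF567 (7.14% called), and 10 of them were below 0 (71.4%). None of these runs moved in 1 direction as a whole. Without replicate 3, 0 of the 107 chromosome 19 genes rose and 3 fell, where that fit called 9.2% of genes that reached 5 CPM. Of these calls 0 lay in the run from ZNF577 to ZNF331. Genes of such runs are close relatives, and how the counting treated reads that match several of them is not given.

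**Figure D4:**
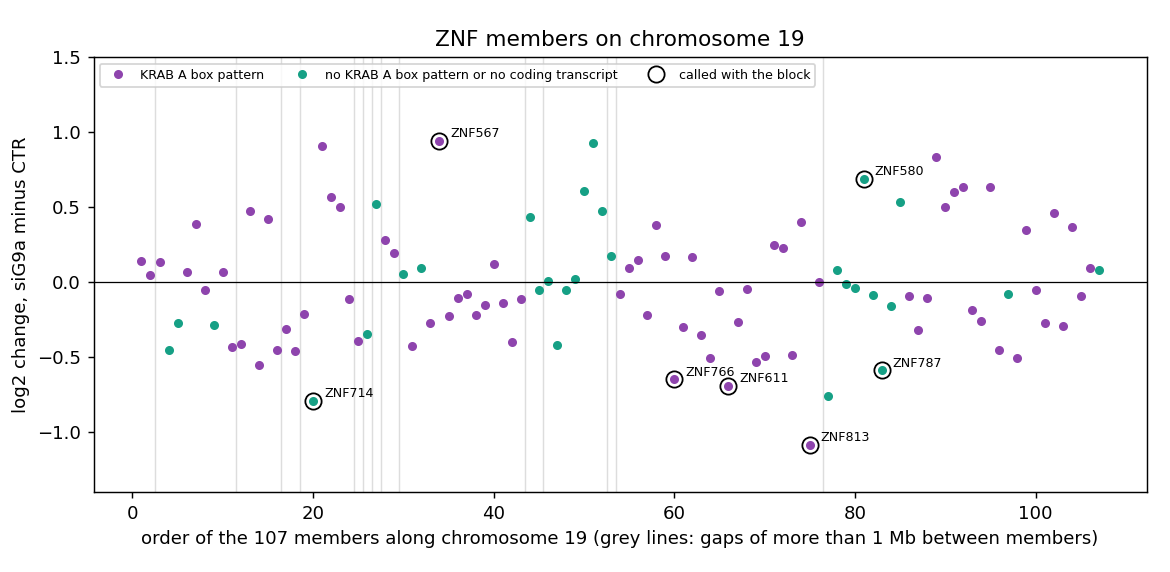
Log2 change from CTR to siG9a (vertical) of the 107 ZNF genes on chromosome 19 in their order along the chromosome (horizontal), with purple for the KRAB A box pattern, green for no pattern or no coding transcript, rings for genes called with the block, and grey lines at gaps of more than 1 Mb between neighbours. Points lie on both sides of 0 along the whole order, with 7 rings, 2 above and 5 below 0.

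The partners of the family in H3K9 silencing were read from a list of 31 genes, of which 29 were tested. CBX1, the HP1 beta protein, rose, and EHMT2 itself and ATF7IP, which stabilises SETDB1, fell. These are 10.3% of the list, against 11.4% of all genes tested and 14.6% of genes that reached 5 CPM. The median CTR level of the list was 64.2 CPM, and of all genes at 50 CPM or more 21.4% were called. EHMT2 was the target of the knockdown, so its fall says nothing about the rest of the list. CBX1 measured 96, 107, 90.4 and 185 CPM in CTR and 224, 199, 156 and 229 CPM in siG9a (log2 change 0.80, SE 0.16; limma with the block, adjusted p = 0.0015). ATF7IP measured 28.1, 49.8, 32.0 and 36.4 CPM in CTR and 10.3, 17.6, 23.4 and 38.4 CPM in siG9a (log2 change -0.79, SE 0.25; limma with the block, adjusted p = 0.0398). In both genes the groups overlapped in part, and in pair 4 ATF7IP was higher in siG9a. Its call was lost without replicate 1 (adjusted p = 0.200), 2 (0.305) or 3 (0.0705), with a pseudocount of 0.1 (0.0657) and in DESeq2 with the block (0.141), whereas CBX1 and EHMT2 passed in each of these fits. SETDB1 measured 17.8, 16.4, 19.1 and 19.7 CPM in CTR and 29.9, 27.8, 24.0 and 28.1 CPM in siG9a with no overlap, but its log2 change of 0.56 (SE 0.23) did not pass (limma with the block, adjusted p = 0.120). TRIM28 measured 75.7 ± 6.72 CPM in CTR and 74.3 ± 12.8 CPM in siG9a (SD, n = 4 each), with a log2 change of -0.04 (SE 0.17; adjusted p = 0.923) whose sign turned in some of the fits that left out 1 library or 1 pair.

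Of 20 genes with known roles outside KRAB repression, 0 rose and 3 fell (ZNF521, ZNF462 and ZNF703), which is 15%, against 14.6% of genes that reached 5 CPM. Among 13 SCAN-domain genes none passed the blocked fit (0%, against 14.6% of genes that reached 5 CPM). The most abundant of them, ZNF24, measured 155 ± 57.9 CPM in CTR and 147 ± 46.3 CPM in siG9a (SD, n = 4 each). Of 13 genes known for acting on repeats, imprinted or ZNF loci none passed (0%, against the same 14.6%). Of these 13, 9 were below 0 (69.2%, against 48.9% of genes that reached 5 CPM), with a median log2 change of -0.21. The medians in pairs 1 to 4 were -0.32, -0.01, 0.20 and -0.13, and the median without replicate 3 was -0.14. This list holds ZNF274, which binds the 3′ ends of ZNF genes and recruits SETDB1 there (14.4 ± 1.39 CPM in CTR, 12.3 ± 5.14 CPM in siG9a; SD, n = 4 each), and ZNF91, a repressor of SVA elements (43.6 ± 19.6 and 33.8 ± 18.4 CPM). Of 55 C2H2 genes with other symbols (ZBTB, ZFP, ZKSCAN and ZSCAN), 4 rose (ZFP14, ZBTB5, ZBTB45 and ZKSCAN5) and 3 fell (ZFP82, ZBTB8A and ZBTB18), which is 12.7%, against 14.6% of genes that reached 5 CPM, as these 55 did. Without replicate 3 the 3 falls were still called and the 4 rises were not, with adjusted p in limma with the block of 0.0728, 0.128, 0.157 and 0.0545.

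Replicate 3 differed from the other libraries of its group in many ZNF genes. In CTR 54 of the 252 were at least 2-fold lower there than the mean of replicates 1, 2 and 4 on the log2 scale, and 11 at least 2-fold higher. In siG9a the numbers were 38 and 9, and 26 genes were lower and 5 higher in both groups. The shifts in the 2 groups had a correlation of 0.64 over the 252 genes, which share their libraries and are not replicates. ZNF43 measured 2.46 CPM in CTR replicate 3 against 14.6 to 19.9 CPM in the other CTR libraries, and 2.85 CPM in siG9a replicate 3 against 12.6 to 21.7 CPM. ZNF503, a developmental repressor, measured 185 CPM in CTR replicate 3 against 30.9 to 77.4 CPM, and 118 CPM in siG9a replicate 3 against 32.5 to 79.1 CPM. Neither gene differed by the test between CTR and siG9a.

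**Figure D5:**
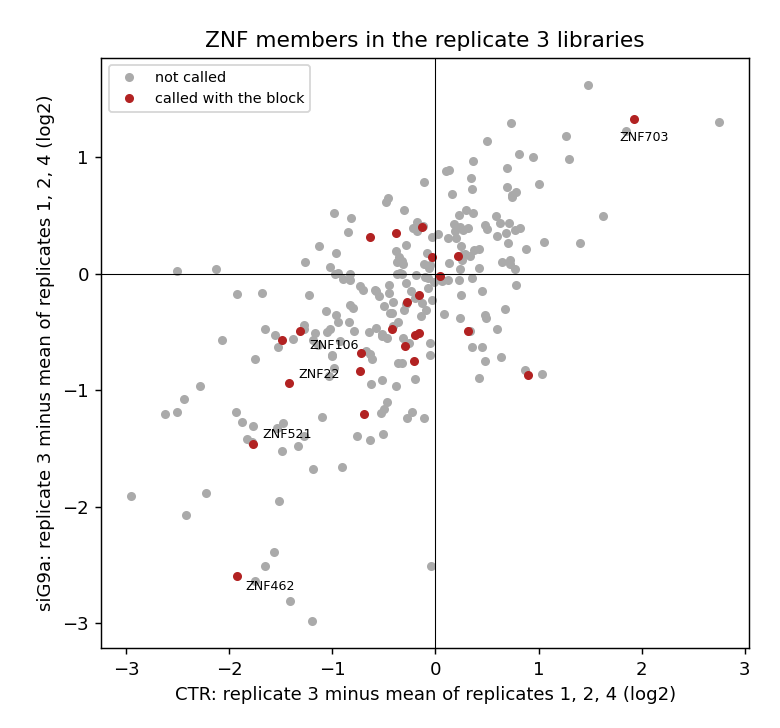
For each ZNF gene, the log2 difference between replicate 3 and the mean of replicates 1, 2 and 4 in CTR (horizontal) and in siG9a (vertical), with the 24 called genes in red. Most points lie along the rising diagonal (correlation 0.64), with ZNF462 and ZNF521 low and ZNF703 high in both groups.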

How the data were processed

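RNA was measured in 4 CTR and 4 siG9a libraries of Rh41 with QuantSeq 3′ mRNA-Seq, 75 bp single-end reads on a NextSeq500, per the labels' protocols. The deposited values are CPM to 2 decimals, made by the authors, and the submitters' processing notes name FastQC 0.11.8, Trim Galore, STAR 2.5.0a, HTSeq 0.8.0 and edgeR 3.28. Those notes name both GRCh38 and hg19, so gene coordinates are not given, and the strand setting of the counting is not given in the sources used here. CPM scales each library to its total, so a large change in some genes moves the others.

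Groups came from the knockdown label. In each library 100% of the CPM values were whole multiples of 1 read (tolerance 0.0051 CPM), so whole reads were recovered. Depths ran from 1458825 to 1938665 reads. Changes are on the log2(CPM + 1) scale, which understates those of low genes, and were fitted with limma 3.58.1 (lmFit, eBayes with trend, two-sided) in R 4.3.3 over the 15092 genes whose mean reached 1 CPM, with Benjamini-Hochberg adjusted p-values and a threshold of 0.05. In another fit the number of the replicate entered as a block. Deviations of same-numbered libraries from their group means correlated at 0.500, 0.104, 0.673 and 0.130 for numbers 1 to 4, all over 0.1, so the numbers, taken from the sample titles, were treated as pairing the libraries, although number 2 correlated better with another number (0.144). Over the ZNF genes alone the correlations were 0.498, 0.0688, 0.642 and 0.101.

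Alternatives were other pseudocounts, filters, scalings, level thresholds and libraries left out, and edgeR 4.0.16 and DESeq2 1.42.0 on the recovered reads. The ZNF genes, lists and tests were chosen with earlier results of these data known. Symbols with several identifiers were taken by the highest mean. The rule for names took up to 10 rises and 10 falls with the largest change among calls with 1 direction in 4 of 4 pairs (with the block, as the fit without it called fewer than 10), the 5 highest means, 3 genes on each side of the level threshold, list members called or first in mean, and EHMT2, TRIM28 and SETDB1. Other genes named were chosen after their values were seen. C2H2 and KRAB patterns were read from translated GENCODE 29 transcripts in place of the RefSeq proteins first planned, and promoters from RefSeq (GRCh38.p14). One ZNF gene is not reported here.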

Additional observations from a re-analysis of the deposited data

Results flagged for a closer look

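Among the groups of 4 libraries of the named genes, 70 were examined for a library far from the other 3, and 8 had one by Dixon's test, where chance alone gives about 3.5. In CTR, ZNF181 measured 8.83 CPM in replicate 4 against 3.43 to 3.69 CPM, and ZNF605 measured 33.75 CPM in replicate 4 against 17.1 to 19.1 CPM. Also in CTR, replicate 1 of ZNF587 (102.14 CPM) lay below the other libraries (141 to 145 CPM), and that of ZNF821 (8.23 CPM) above them (3.65 to 4.15 CPM). CTR replicate 3 was low in ZNF428 (323.45 CPM against 654 to 716 CPM) and in ZNF813 (15.99 CPM against 25.5 to 27.0 CPM). In siG9a, replicate 1 was high in ZNF273 (14.96 CPM against 5.14 to 6.05 CPM) and in ZNF329 (9.8 CPM against 1.72 to 3.03 CPM). Over all 252 ZNF genes such a library was replicate 1, 3 or 4 in 4, 12 and 6 genes of CTR and in 4, 6 and 3 genes of siG9a, and replicate 2 in 0 genes of either group.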

How the results depend on the processing

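Without the block, limma called 0 ZNF genes higher and 0 lower, and the alternatives moved these counts as follows. With the replicate block the counts were 7 higher and 17 lower. With the replicate block and another processing they were 6 and 17 under median-ratio scaling, 4 and 14 with a pseudocount of 0.1, 7 and 17 with a pseudocount of 5, and 7 and 17 under quantile normalisation. These 4 blocked alternatives were chosen after seeing the data. Beside the rises and falls given above, the block changed the call of no other named gene. Leaving out 1 pair from the blocked fit gave 2 to 4 higher and 5 to 13 lower, with 2 and 9 without replicate 3 and 3 and 9 without replicate 1. On recovered reads with the block, edgeR gave 6 and 16 and DESeq2 2 and 7, and DESeq2 without the block gave 1 and 1. Leaving out CTR replicate 3 from the unblocked fit gave 1 and 2, and leaving out any other single library gave 0 and 0. The median log2 change over the ZNF genes was -0.03 and ranged from -0.08 without CTR replicate 3 to 0.05 without siG9a replicate 3, within its spread between pairs.

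For 35 named genes under 28 alternatives, 769 values kept their direction and their side of the threshold, 185 passed it in the same direction, 0 lost a call, since none had one without the block, and 23 changed sign, all in genes that the block did not call either. With 1 library left out, TRIM28 ranged from -0.143 to 0.0231, ZNF24 from -0.298 to 0.158, ZNF532 from -0.333 to 1.03, ZNF587 from -0.173 to 0.160, ZNF821 from -0.173 to 0.165 and ZNF844 from -0.00374 to 0.754. In the blocked fit with 1 pair left out, TRIM28 ranged from -0.191 to 0.0662 (0.00152 without replicate 4), ZNF24 from -0.122 to 0.044, ZNF329 from -0.622 to 0.055, ZNF532 from -0.0838 to 0.703, ZNF587 from -0.114 to 0.0383 and ZNF821 from -0.265 to 0.0639. Quantile normalisation gave 0.0133 for ZNF24, blocked or not, and edgeR and DESeq2 gave -0.261 and -0.273 for ZNF532. The cause was not tested. At this depth a gene near 10 CPM is known from few reads per library, which limits what the low ZNF genes can show.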
